A study of Mus musculus with 4 samples.

Results

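The genes of the vesicle release machinery were taken by name from the annotation of the array: every probe whose symbol belonged to the synaptotagmins, syntaxins, syntaxin-binding proteins, SNAP-25 proteins, VAMPs, synapsins, complexins, RIMs, SV2 proteins and synaptophysin, Rab3, Munc13, NSF or the SNAP adaptors. These genes were chosen for report with earlier results of these data known. The match by name itself used no measured value. It gave 119 probes of 86 genes, out of 25697 probes on the array and 16593 annotated genes. It also took in 12 genes from Rab30 to Rab39 and the clathrin adaptor gene Snap91, whose names match by spelling only; they are kept as groups of their own.

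Neurons release transmitter when a vesicle that has docked at the plasma membrane fuses with it. Fusion is driven by SNARE proteins: a VAMP on the vesicle pairs with a syntaxin and SNAP-25 on the target membrane, SM and Munc13 proteins guide the assembly, complexin holds it and a synaptotagmin triggers it on binding calcium. NSF and its SNAP adaptors then take the spent complex apart. Hypothalamic POMC neurons release both small transmitters from synaptic vesicles and peptides from dense-core granules, and related SNARE proteins act in the endosomes and the Golgi of every cell.

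Messenger RNA bound to hemagglutinin-tagged ribosomes was immunoprecipitated from punches of the mediobasal hypothalamus and read on Illumina MouseRef-8 v2 beadchips. The lineage group (n = 2 arrays) came from the cross of Pomc-Cre with RiboTag animals (Pomc-Cre:RiboTag), in which cells whose ancestors expressed Pomc carry the tag as well as adult POMC neurons. For the virus-injected group (n = 2 arrays), the Cre-dependent viral vector AAV-DIO-RiboTag had been given to Pomc-Cre animals; the cell type in the labels is the adult POMC neuron. Both tags thus depend on where the Pomc-Cre transgene is active. The comparison sets the wider lineage beside the adult population. The way of tagging, a cross or an injected viral vector, went with the group, so its effects cannot be told apart from those of the cell population. The labels give no age or sex and do not say whether an array holds 1 animal or a pool, so p-values reflect only how far these arrays differ among themselves, and that may be technical. All 4 arrays shared 1 beadchip, and position on it cannot be told apart from group.

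Between 10982 and 12306 probes were detected per array, among them 78 to 84 of the 119 probes of the release machinery. Pomc had intensities of 7108 and 7874 on the lineage arrays, against 5079 and 5219 on the virus-injected arrays, so the defining transcript was present on every array. Of the 8 tested probes of 5 POMC neuron markers, Pomc among them, 6 had a higher and 2 a lower mean in the lineage group. An unadjusted limma p under 0.05 was found for 3 of the higher ones, where 4.83% of all tested probes were higher with such a p. Of these 3, 1 probe of Tbx3 was not above background on either virus-injected array. It passed the filter through the lineage group alone. The other tested Tbx3 probes had unadjusted limma p-values of 0.246 and 0.0615. Over all probes 0 passed. The 18 probes of 13 general neuronal markers outside the machinery summed to 85828 to 86674 on the lineage arrays, against 80418 to 88797 on the virus-injected arrays. The 8 astrocyte markers summed to 15014 to 15846 on the lineage arrays, against 17521 to 20170 on the virus-injected arrays, and the oligodendrocyte markers to 10075 to 10186, against 12846 to 12992. All 8 tested astrocyte probes and all 8 tested oligodendrocyte probes had a lower mean in the lineage group, while Gfap, Aqp4, Mog and Mobp did not pass the filter on dim probes. The 5 microglial markers with a probe summed to 3646 to 4052 on the lineage arrays, against 3861 to 4215 on the virus-injected arrays, with both tested probes lower by their means, and the 5 endothelial and mural markers to 3792 to 3828, against 4244 to 4761. Of the last list 2 probes were tested: Rgs5, a pericyte marker, was at -1.47 on the log2 scale, lineage minus virus-injected (SE 0.26, unadjusted p = 0.00306, limma adjusted p = 0.303), and Esam, an endothelial adhesion molecule, at 0.03 (SE 0.48). No tanycyte or ependymal marker passed the filter. The signal of astrocyte and oligodendrocyte markers and of Rgs5 thus was lower in the same group as that of the members described first here. Its part in their differences was not tested. The microglial sums overlapped between the groups. In precipitated RNA of this kind, fewer cells of a type and less RNA per cell cannot be told apart.

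Of the 119 probes, 83 probes of 65 genes were detected on at least 2 of the 4 arrays (detection p-value under 0.05) and were tested with all other such probes; 36 probes were not, and 21 genes had no tested probe. The limma fit called 0 of the 83 at an adjusted p of 0.05, as it called 0 of all 12266 probes tested (0%); the lowest adjusted p among the members was 0.296. At an unadjusted p under 0.05 there were 8 of 83, 9.64%, where all tested probes gave 10.4%. Of these 8, 7 were lower in the lineage group (8.43% of the members, against 5.56% of all probes) and 1 was higher (1.2%, against 4.83%). The count of 8 is therefore near the background of the array. One of the 8, Unc13c, was not above background on either lineage array and passed the filter through the virus-injected group alone. Over the probes detected in both groups, a filter added after seeing the data, 7 of 82 members (8.54%) had such a p, against 8.69% of all.

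Most members had a small estimated difference between the groups, with a median SE of 0.18, so small estimates do not show equal levels. The log2 difference, lineage minus virus-injected, was smaller than 0.2 in either direction for 67.5% of the 83 probes and for 50.6% of all tested probes. The values of the 2 groups did not overlap for 24 member probes, 28.9%, where they did not overlap for 43.3% of all tested probes; 13 of the 24 were lower (15.7%, against 21.4% of all) and 11 were higher (13.3%, against 21.9%). The median difference was -0.050 over the members and 0.0030 over all probes, and without lineage replicate 1 the members' median was 0.015. Members were also detected on all 4 arrays more often, for 90.4% of the probes against 82.8%. The median SD within groups was 0.17 over members and 0.19 over all probes.

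**Figure D1:**
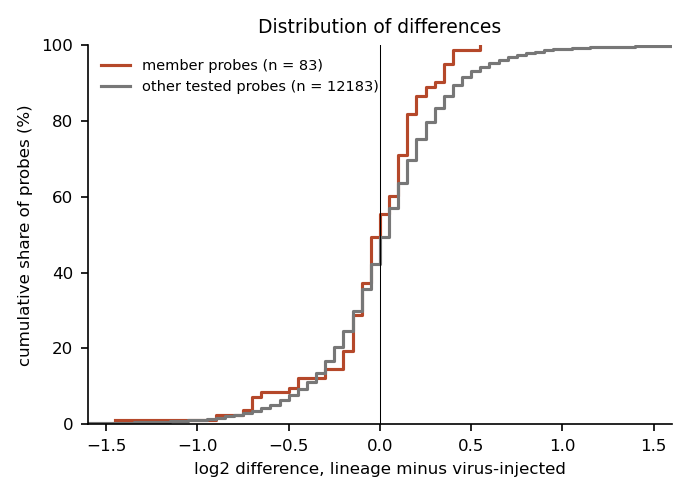
Cumulative share of probes (%) by log2 difference, lineage minus virus-injected, for the 83 tested member probes and for the other tested probes. The members' curve is steeper around 0, where 67.5% of them lie within 0.2, and it extends further to the left, to -1.49, than to the right, to 0.52; the point at -1.49 is Unc13c, which was not above background on the lineage arrays.

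With groups that did not overlap and a difference of at least 0.58, there were 6 lower probes, 7.23% of the members against 4.9% of all tested probes, and 0 higher probes, against 4.55%. The 6 probes belonged to the vesicle-priming genes Unc13b and Unc13c, the syntaxin-binding protein gene Stxbp3, the vesicle protein gene Sv2b, and Stx8 and Stx6, whose SNAREs act in late endosomes and the trans-Golgi network. None passed over all probes. The count of 6 includes Unc13c, which was not above background on either lineage array and passed the filter through the virus-injected group alone.

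Both measured Munc13 genes, which encode the proteins that open syntaxin and prime vesicles for fusion, had lower signals in the lineage group. Unc13b (Munc13-2) had intensities of 2889 and 3127 on the lineage arrays, against 5128 and 4218 on the virus-injected arrays. The groups did not overlap, and the log2 difference was -0.65 (SE 0.16, 95% interval -1.06 to -0.24, limma adjusted p = 0.361). Unc13c (Munc13-3), known in mice for its part in cerebellar synapses, had 542 and 580 on the lineage arrays, against 956 and 791 on the virus-injected arrays. It was not above background on either lineage array, so its level there is only a bound. Its virus-injected mean lay 2.35-fold above the detection floor of the lineage arrays, a figure that makes no allowance for the spread between arrays. The limma fit, which takes the dim values as read, gave a 95% interval of -2.01 to -0.98 on the log2 scale (adjusted p = 0.296). Without background correction the difference was -0.60. It entered the test because both virus-injected arrays detected it, and it had to differ to do so.

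Stxbp3 encodes Munc18c, the partner of syntaxin 4 in exocytosis outside the synapse as well as in neurons. Its intensities were 2642 and 2827 on the lineage arrays, against 5322 and 4735 on the virus-injected arrays. The standard errors over the 39 to 46 beads that read it on each array lay between 120 and 200; they cover the reading of each array only, not the spread between animals or preparations. On the normalized scale it stood at 11.21 ± 0.03 on the lineage arrays, against 12.13 ± 0.04 on the virus-injected arrays (SD, n = 2 each), a difference of -0.92 (SE 0.15, 95% interval -1.31 to -0.54, limma adjusted p = 0.296), or 1.90-fold. The remaining tested probes of syntaxin-binding proteins, of Stxbp2, Stxbp4 and Stxbp5l, lay between 0.13 and 0.34, each with an interval that includes 0.

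Sv2b encodes a glycoprotein of the vesicle membrane. It had intensities of 2408 and 2825 on the lineage arrays, against 4427 and 3976 on the virus-injected arrays, with a log2 difference of -0.73 (SE 0.16, 95% interval -1.16 to -0.31, limma adjusted p = 0.330). The pair of probes for its paralogue Sv2a lay at 0.12 (interval -0.32 to 0.56) and 0.08 (-0.37 to 0.53). Whether the 2 paralogues differ from each other was not tested.

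Another model of the spread gave other calls. A fit in which the spread follows brightness (eBayes with a trend) called 233 probes, 1.9% of those tested, and 5 of the 83 members, 6.02%. They were the 4 genes just described, Stxbp3 (adjusted p = 0.000338), Sv2b (0.00413), Unc13b (0.00552) and Unc13c (0.0391), and Syt4 (0.0087), which was higher. Without probes that 1 group did not detect, which takes out Unc13c, the trend called 4 of 82 members (4.88%), against 1.83% of all. With the trend and 1 array left out, 3 to 5 members were called, Stxbp3 and Sv2b each time; Syt4 was lost without virus-injected replicate 2, Unc13b without virus-injected replicate 1, and Unc13c without lineage replicate 1. Without either virus-injected array Unc13c was not tested, since it was then detected on 1 array. Without background correction 45 probes were called, 0.367%, among them 1 member, Stxbp3 (adjusted p = 0.0288), 1.2% of the members.

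**Figure D2:**
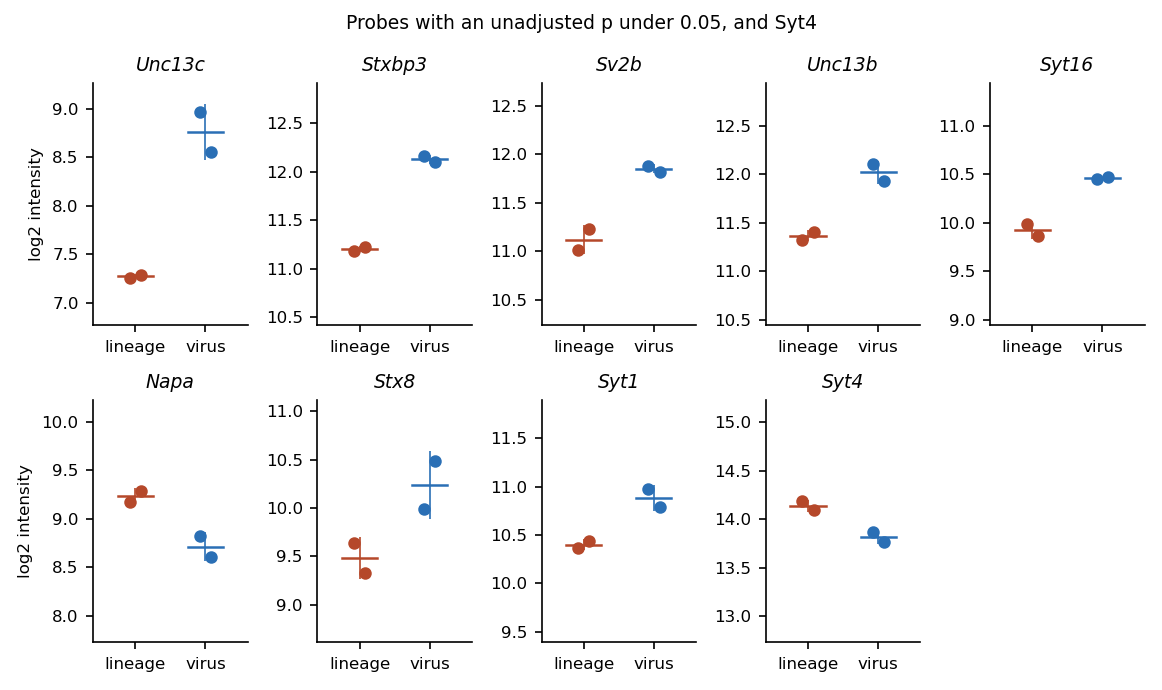
Normalized log2 intensity on each array (points) for the 8 member probes with an unadjusted p under 0.05 and for Syt4, lineage at the left and virus-injected at the right; bars mark the mean and vertical lines the SD (n = 2 each), and every panel spans the same range. Napa and Syt4 are the only panels of the 9 in which the lineage arrays lie higher. The lineage values of Unc13c were not above background.

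The promoter windows of the 4 genes with the smallest p-values are shown because all 4 had lower signals in the lineage group. They come from RefSeq on GRCm38.p6, each 300 bases around a listed start and read along the gene: Unc13b chr4:43058703-43059002 (+), Unc13c chr9:73968988-73969287 (-), Stxbp3 chr3:108840453-108840752 (-) and Sv2b chr7:75309213-75309512 (-), the outermost of 4 listed starts. Capitals mark matches, on either strand, to 5 short motifs that are spelled out after the sequences; no matches overlap.
Unc13b: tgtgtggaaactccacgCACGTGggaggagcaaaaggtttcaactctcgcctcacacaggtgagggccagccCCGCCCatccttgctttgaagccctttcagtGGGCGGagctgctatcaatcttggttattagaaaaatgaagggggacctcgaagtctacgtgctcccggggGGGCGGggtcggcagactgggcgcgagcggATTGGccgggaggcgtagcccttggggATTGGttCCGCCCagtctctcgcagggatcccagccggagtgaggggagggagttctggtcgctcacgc
Unc13c: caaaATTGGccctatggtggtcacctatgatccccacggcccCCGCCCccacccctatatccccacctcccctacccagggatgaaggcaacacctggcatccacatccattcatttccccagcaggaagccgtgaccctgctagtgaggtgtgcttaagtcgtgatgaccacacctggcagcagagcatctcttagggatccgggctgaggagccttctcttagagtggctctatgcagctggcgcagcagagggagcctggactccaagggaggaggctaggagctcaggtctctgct
Stxbp3: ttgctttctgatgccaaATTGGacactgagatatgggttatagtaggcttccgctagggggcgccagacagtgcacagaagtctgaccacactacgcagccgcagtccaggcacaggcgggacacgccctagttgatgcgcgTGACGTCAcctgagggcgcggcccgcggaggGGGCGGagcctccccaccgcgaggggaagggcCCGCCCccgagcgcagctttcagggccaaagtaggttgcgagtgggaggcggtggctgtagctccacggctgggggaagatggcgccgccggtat
Sv2b: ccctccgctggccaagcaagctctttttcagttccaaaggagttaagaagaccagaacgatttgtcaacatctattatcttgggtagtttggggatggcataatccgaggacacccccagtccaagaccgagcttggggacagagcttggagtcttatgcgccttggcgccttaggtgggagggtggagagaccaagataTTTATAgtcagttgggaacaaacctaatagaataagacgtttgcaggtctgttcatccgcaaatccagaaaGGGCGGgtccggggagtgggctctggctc

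The Sp1 box, spelled GGGCGG, was found in each of the 4 windows, with 4 matches for Unc13b, 2 for Stxbp3 and 1 each for Unc13c and Sv2b; 35.6% of the 32817 windows in the table hold at least 1. The cyclic AMP response element, spelled TGACGTCA, occurs among the 4 for Stxbp3 only, and in 1.79% of all windows. An E-box of the letters CACGTG occurs for Unc13b only, and in 7.15% of all windows. A TATA box, searched as TATAAA, occurs for Sv2b only, and in 13.6% of all windows. The CCAAT box, named for its letters, occurs for 3 of the 4, all but Sv2b, and in 37.4% of all windows. The windows differ in base composition, with 20 and 25 CpG dinucleotides for Unc13b and Stxbp3 against 6 and 10 for Unc13c and Sv2b, where the median window has 7. No binding or methylation was measured, so these matches are a description of the sequences.

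Synaptotagmins, the calcium sensors of release and their relatives, went both ways. Of 24 probes of 17 genes, 13 were tested, with a median difference of 0.0042 and a range of -0.53 to 0.35. Syt1, the sensor of fast synchronous release, had intensities of 1675 and 1830 on the lineage arrays, against 2581 and 2136 on the virus-injected arrays. The groups did not overlap, with a log2 difference of -0.48 (SE 0.16, 95% interval -0.90 to -0.06, limma adjusted p = 0.437). Syt16, an atypical member that does not bind calcium, had 1398 and 1374 on the lineage arrays, against 1925 and 1794 on the virus-injected arrays, a difference of -0.53 (SE 0.15, adjusted p = 0.403).

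Syt4, which in neurons resides on peptide-containing vesicles, and Syt7, the slow high-affinity sensor, had higher signals in the lineage group. Syt4 had 18059 and 16719 on the lineage arrays, against 16986 and 14569 on the virus-injected arrays; these raw intensities overlap, whereas the normalized values, 14.14 ± 0.06 on the lineage arrays, against 13.82 ± 0.07 on the virus-injected arrays (SD, n = 2 each), do not. The log2 difference was 0.32 (SE 0.15, 95% interval -0.08 to 0.71, limma adjusted p = 0.544). Syt7 had 779 and 870 on the lineage arrays, against 784 and 716 on the virus-injected arrays, with a difference of 0.35 (SE 0.16, limma adjusted p = 0.542) on 1 probe, whose raw intensities also overlap while the normalized values do not; its other probes were too dim to test. The remaining tested synaptotagmin genes, Syt5, Syt6, Syt9, Syt11, Syt12, Syt13 and Syt17, lay between -0.22 and 0.29, and 6 further genes, Syt2, Syt3, Syt8, Syt10, Syt14 and Syt15, had no probe past the filter.

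The SNAREs of the release site itself differed little. Vamp2, the vesicle SNARE of most forebrain synapses, had intensities of 8594 and 8356 on the lineage arrays, against 8761 and 8933 on the virus-injected arrays, a log2 difference of 0.03 (SE 0.15, interval -0.37 to 0.43). Snap25 had 884 and 913 on the lineage arrays, against 878 and 868 on the virus-injected arrays, a difference of 0.12 (SE 0.15, interval -0.27 to 0.51). Stx1a had 1040 and 914 on the lineage arrays, against 1163 and 945 on the virus-injected arrays, a difference of -0.14 (SE 0.24, interval -0.78 to 0.49). Shifts of 1.5-fold, 0.58 on the log2 scale, lie outside the intervals of Vamp2 and Snap25, while for Stx1a a decrease of that size cannot be told from none. The plasma-membrane syntaxins Stx3, on its pair of tested probes, and Stx4a lay between -0.17 and -0.09.

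Vamp1, the VAMP of fast-firing neurons, was read by 4 probes that did not go one way. Of these, 3 had lower means in the lineage group, at -0.32, -0.31 and -0.24, and the other was at 0.32, each with an interval that includes 0. The lowest p was that of the probe with 625 and 669 on the lineage arrays, against 726 and 712 on the virus-injected arrays (unadjusted p = 0.0846, limma adjusted p = 0.530). Both Vamp3 probes, for the VAMP of recycling endosomes, were at -0.22 and -0.12, and Vamp4 and Vamp7 were at -0.09 and 0.07. Vamp5 and Vamp8 had no probe past the filter.

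**Figure D3:**
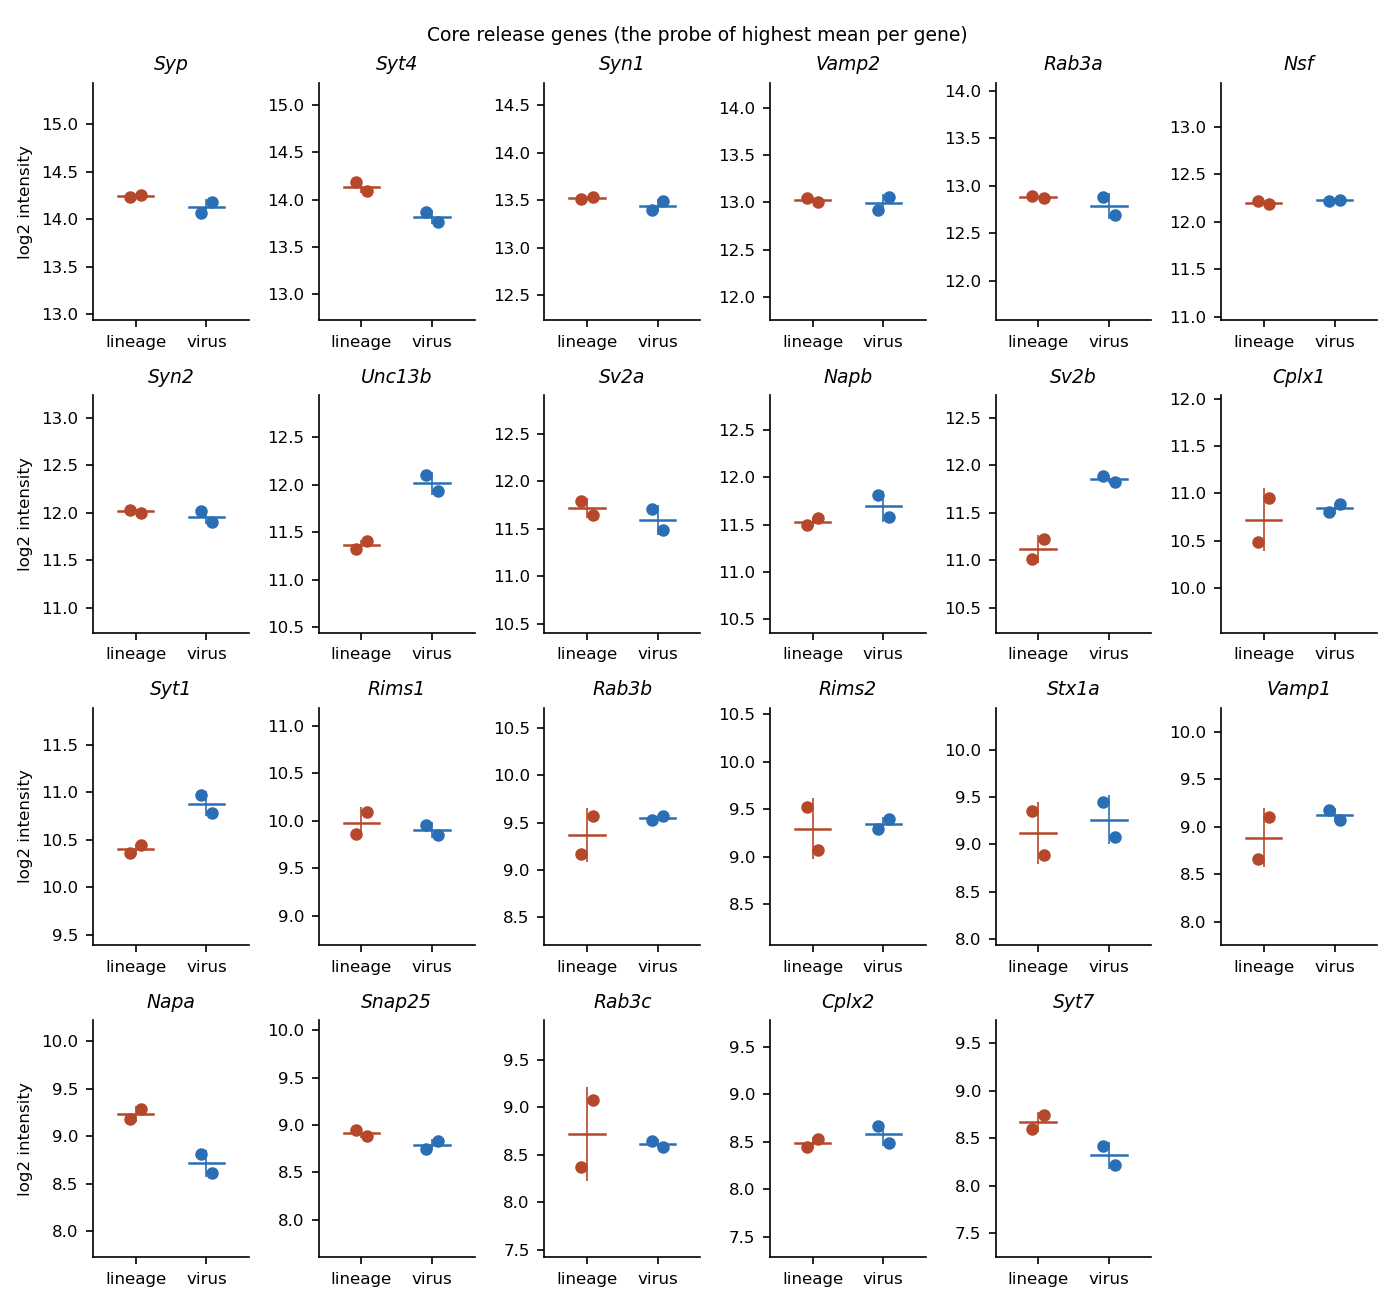
Normalized log2 intensity on each array (points) for the 23 core release genes with a tested probe, the probe of highest mean standing for a gene, lineage at the left and virus-injected at the right; bars mark the mean and vertical lines the SD (n = 2 each), on the same span as in the plot of the low-p probes. The gap between group means is under 0.2 for all but 7 genes: Sv2b (-0.73), Unc13b (-0.65), Syt1 (-0.48) and Vamp1 (-0.24) lie lower in the lineage group, and Napa (0.52), Syt7 (0.35) and Syt4 (0.32) higher.

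Syntaxins as a family leaned lower, with 13 of 15 tested probes lower by their means and a median of -0.15, where 49.4% of all probes had a lower mean; the 15 probes read 11 genes, so they are not independent. Groups that did not overlap toward lower values were found for 2 of the 15, 1 of Stx8 and 1 of Stx6, a smaller share than the 21.4% of all tested probes. Stx8, a SNARE of late endosomes, had intensities of 1178 and 1085 on the lineage arrays, against 1509 and 1814 on the virus-injected arrays, on that probe. Its log2 difference was -0.76 (SE 0.24, 95% interval -1.39 to -0.12, limma adjusted p = 0.427). The other tested probes of Stx8 were at -0.15 (SE 0.18) and -0.73 (SE 0.67), and the last turned to 0.071 without lineage replicate 2. Stx6, a SNARE of the trans-Golgi network, had 567 and 747 on the lineage arrays, against 875 and 756 on the virus-injected arrays, a difference of -0.71 (SE 0.32, interval -1.56 to 0.14), with -0.47 (SE 0.34) on its other probe; with 1 array left out the larger difference spanned -1.13 to -0.30. The highest of the family were Stx17, the autophagosome SNARE, at 0.32 and Stx12, of recycling endosomes, at 0.09, both with intervals that include 0.

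Among the SNAP-25 relatives, Snap47 was at 0.22 (SE 0.15), Snap29 at 0.15 (SE 0.18) and Snap23, the widely expressed counterpart of Snap25, at -0.13 (SE 0.31). Snap47 had 1900 and 2088 on the lineage arrays, against 1857 and 1774 on the virus-injected arrays, without overlap. Of the disassembly machinery, the ATPase gene Nsf had 5039 and 4987 on the lineage arrays, against 5498 and 5166 on the virus-injected arrays, a log2 difference of -0.03 (SE 0.14, interval -0.40 to 0.35). Its adaptor genes Napb and Napg were at -0.16 and 0.06.

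Napa, the gene of alpha-SNAP, was the 1 member higher in the lineage group at an unadjusted p under 0.05, and only on 1 of its 3 probes. That probe had 966 and 1066 on the lineage arrays, against 900 and 803 on the virus-injected arrays, a log2 difference of 0.52 (SE 0.16, 95% interval 0.09 to 0.95, limma adjusted p = 0.427). The remaining Napa probes lay at 0.11 and -0.09 with overlapping groups, so the probes of this gene disagree; without background correction the difference of 0.52 was 0.28.

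Of the 12 tested probes of complexins, RIMs, Rab3 and synapsins, 0 had an unadjusted p under 0.05, where 10.4% of all tested probes did; with so few probes that share comes to about 1. Cplx1 and Cplx2, which clamp and assist fusion, were at -0.12 (SE 0.21) and -0.09 (SE 0.16). The active-zone scaffolds Rims1, Rims2 and Rims3 were at 0.08, -0.05 and 0.0014, and the vesicle GTPases Rab3a, Rab3b and Rab3c at 0.10, -0.18 and 0.10. Rab3a had intensities of 7735 and 7707 on the lineage arrays, against 8545 and 6902 on the virus-injected arrays. Syn1, which tethers vesicles in reserve, was at 0.08 and -0.10 on its probes, with opposite signs and with groups that did not overlap on either, Syn2 was at 0.05 and Syn3 at -0.08. Syp, the vesicle protein synaptophysin, had 18758 and 18973 on the lineage arrays, against 19324 and 19289 on the virus-injected arrays, and a normalized difference of 0.12 (SE 0.15, interval -0.27 to 0.51). For Syp, Vamp2 and the Syn1 probe at 0.08, among others, raw intensities were lower and normalized means higher in the lineage group, so the sign rests on the scaling between arrays.

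The Rab3 regulators Rab3gap1, a subunit of the GTPase-activating complex, and Rab3ip, an exchange factor for Rab8, were at 0.17 (SE 0.17) and 0.36 (SE 0.44). The genes that matched by spelling showed no probe at an unadjusted p under 0.05: the 9 tested probes of Rab30 to Rab39 lay between -0.16 and 0.37, and the pair of Snap91 probes at -0.17 and -0.06. Without these groups the 72 remaining member probes had a median of -0.064 and the same 8 probes at an unadjusted p under 0.05.

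**Figure D4:**
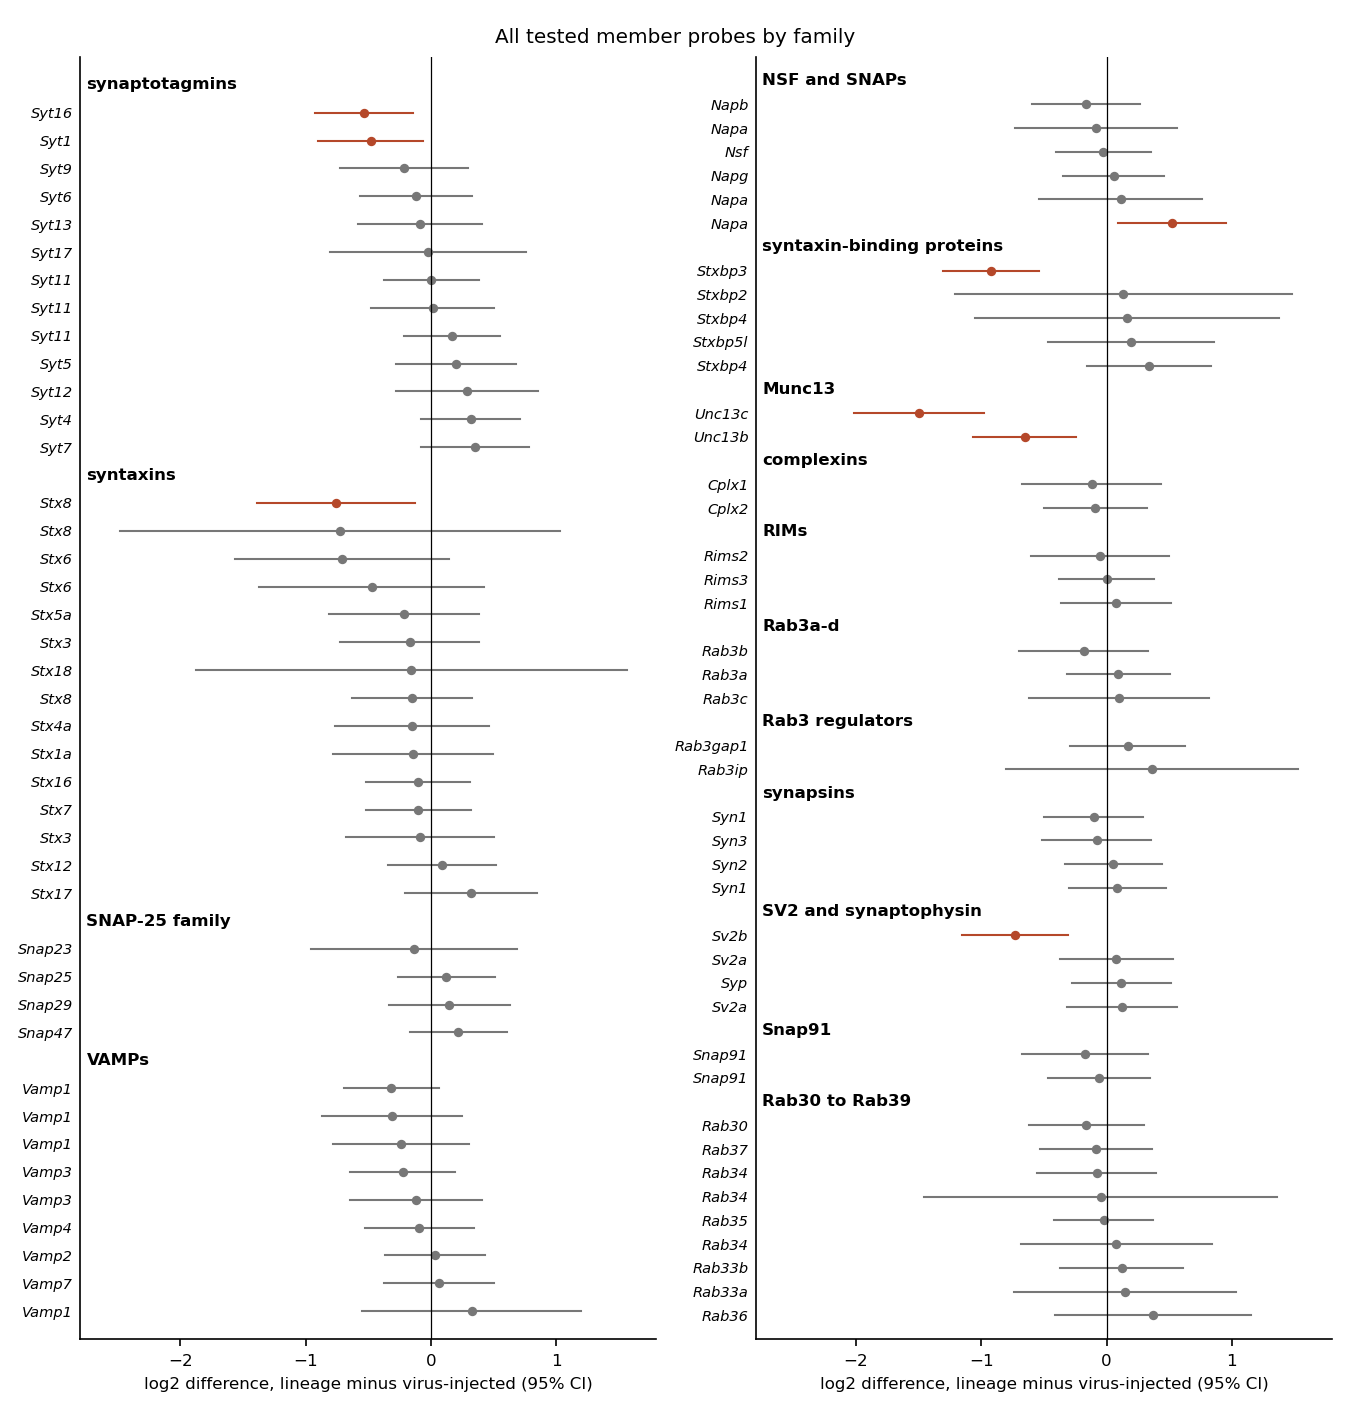
Log2 difference, lineage minus virus-injected, with its 95% interval from the limma fit, for each of the 83 tested member probes, by family; a gene name that repeats stands for several probes. The 8 probes with an unadjusted p under 0.05 are coloured, and Napa is the only one of them to the right of 0.

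Some members varied more between replicates than between groups. Stxbp2 had 639 and 1131 on the lineage arrays, against 833 and 778 on the virus-injected arrays, and Rab3ip had 1377 and 881, against 882 and 1010. Stx18, an endoplasmic reticulum SNARE, had 526 and 654 on the lineage arrays, against 808 and 500 on the virus-injected arrays. For Stxbp2 and Stx18 the spread within 1 group covered the whole other group, and for Rab3ip the groups overlapped. The intervals reached from -1.21 to 1.48 for Stxbp2, from -0.80 to 1.53 for Rab3ip and from -1.88 to 1.57 for Stx18, and 2-fold differences in either direction lie inside the intervals of Stxbp2 and Stx18.

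Other genes of release and vesicle recycling, given as a list of 50 of which 41 had a probe, are set beside the members. Of 63 tested probes of 38 genes, 0 passed the limma fit over all probes, 0 had an unadjusted p under 0.05 (10.4% of all tested probes did), 28 had a higher and 35 a lower mean, and the median was -0.023. The 4 genes of smallest p were all lower in the lineage group: Ppfia2 (liprin-alpha 2, an active-zone scaffold) at -0.41 (SE 0.16), Rph3a (rabphilin, a Rab3 effector) at -0.41 (SE 0.16), Itsn1 (intersectin, an endocytic scaffold) at -0.82 (SE 0.36) and Bin1 (amphiphysin 2) at -0.31 (SE 0.16). Their adjusted p-values were 0.483, 0.497, 0.516 and 0.569.

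**Figure D5:**
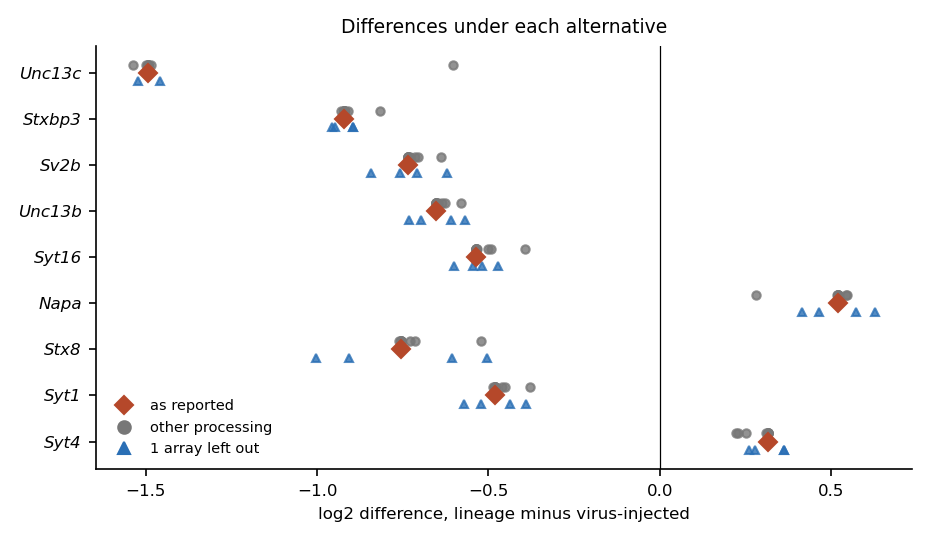
Log2 difference, lineage minus virus-injected, of the 8 probes with an unadjusted p under 0.05 and of Syt4, as reported (diamonds), under other processing (circles) and with 1 array left out (triangles). Each keeps its side of 0 in every alternative that gave it a value, 14 for 8 of the probes and 11 for Unc13c, which was not above background on the lineage arrays. The groups did not overlap for any of these probes, so leaving out 1 array could change the side only through the renormalization. The other alternatives use the same arrays again, so the kept side is no independent support. The circle of Unc13c at -0.60 is the value without background correction.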

How the data were processed

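Ribosome-bound RNA of 2 groups of 2 arrays was measured. Per the file headers, the deposited table holds the mean bead intensity of every probe, the number of beads, their standard error and a detection p-value; GenomeStudio made them, per the submitters' processing notes, with settings not given in the sources used here. The authors' processed intensities, in a second deposited table, served as an alternative: each column was a straight line of the deposited intensity (largest residual 0.0101), with a constant of 416 to 440 subtracted and array means set to 718. Its column medians were 134, 126, 122 and 130; its scale, centring and direction were thus settled.

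Intensities were corrected with neqc of limma 3.58.1 (R 4.3.3; normexp from the deposited detection p-values, offset 16, quantile normalization, log2). Raw intensities include the background of the array. Probes with detection p-values under 0.05 on 2 or more arrays were tested, lineage minus virus-injected, by lmFit and eBayes with no covariate (2 residual degrees of freedom). Two-sided p-values were adjusted by Benjamini-Hochberg over 12266 probes; intervals are 95%. An exact permutation of 2 against 2 cannot go below 0.333. The number of arrays limits the precision. Same-numbered arrays did not deviate together (r = -0.024), and the labels do not pair them. The platform annotation named 23978 probes with 1 symbol, 0 with several and 1719 with none; 0 symbols changed on updating.

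The members, lists and tests were chosen with earlier results of these data known. Values are given for core genes, the probe of smallest p in each family, and probes without overlap that differ by at least 0.58; for the other pathway genes, the 4 of smallest p. Other members named complete their families. Stxbp2, Rab3ip and Stx18 as examples of spread, and the promoter motifs were chosen after the values were seen. Alternatives changed the background correction, normalization, filter, model of the spread, values, summary per gene, block and arrays. Some genes are not reported here.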

Additional observations from a re-analysis of the deposited data

How the results depend on the processing

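The limma count of 0 over all probes (1274 at an unadjusted p under 0.05) became 233 with a trend, 45 without background correction, 5 with median scaling and 1 with the authors' processed values, and was 0 under the other alternatives. The count of 0 members became 5 with a trend and 1 without background correction; with a trend and 1 array left out (added after seeing the data) it was 3 without either virus-injected array, where Unc13c was not tested, 4 without lineage replicate 1 and 5 without lineage replicate 2. With only probes detected in both groups (also added later) both counts were 0, and with a trend 218 probes and 4 members. The members' count was 0 under the rest, leaving out each array included. The replicate block, whose numbers do not pair the samples, also called 0 probes and 0 members, with 5 members at an unadjusted p under 0.05. The members' median of -0.050 was -0.026 without background correction, -0.064 with cyclic loess, -0.023 without a filter, -0.035 with the authors' processed values, -0.025 with 1 probe per gene and -0.064 without Rab30 to Rab39 and Snap91 (also added later), and ranged from -0.034 to 0.015 with 1 array left out; the cause was not tested. Of 586 recomputed values of named probes, 561 kept their sign and side of the threshold, 6 passed it (Stxbp3 at -0.92, Sv2b at -0.73, Syt4 at 0.32, Unc13b at -0.65 and Unc13c, a bound only, with a trend, and Stxbp3 at -0.82 without background correction), 18 whose value was smaller than its standard error crossed 0, and 1 Stx8 probe reversed, spanning -1.50 to 0.071 with 1 array left out. The 2 arrays per group and dim probes limit what could be detected.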
